A study of Mus musculus with 4 samples.

Results

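The Ly6 surface protein family was examined here as 6 genes, Ly6a, Ly6c1, Ly6c2, Ly6d, Ly6e and Ly6g, taken by symbol from the 31053 genes of each count matrix, and each of the 6 had UMIs in all 4 libraries. A UMI (unique molecular identifier) marks 1 captured RNA molecule, read from its 5′ end. The libraries came from bone marrow mononuclear cells, flushed from femur and tibia and separated on Ficoll-Paque, of C57BL/6 mice labelled TLR9-/- or WT, with 2 libraries of each genotype. TLR9 is a receptor for microbial DNA. According to the methods, each library was 1 mouse and a TLR9-/- and a WT mouse were processed side by side in each experiment, although no label ties the numbers 1 and 2 to an experiment. The age of these mice is not given in the sources used here. Values of the 4 libraries are given below in the order TLR9-/- 1, TLR9-/- 2, WT 1 and WT 2.

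Ly6 proteins share a small three-fingered fold held by disulfide bonds, and most are tied to the outer membrane by a GPI lipid anchor. Their expression changes as blood cells mature, so antibodies to them are the everyday tools for sorting marrow: Sca-1, the product of Ly6a, marks stem cells in the mouse, Ly-6C marks inflammatory monocytes, and Ly-6G marks neutrophils. Ly6d marks lymphoid progenitors on their way to B cells, and Ly6e, which interferon induces as it does Ly6a, acts in the defence against several viruses and in the placenta as a receptor for a syncytin.

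All 6 genes lie on chromosome 15 of GRCm38, within a cluster of related genes. In the order of their positions they were Ly6d (ENSMUSG00000034634, 74762056 to 74763620, minus strand), Ly6e (ENSMUSG00000022587, 74955051 to 74959905, plus strand) and Ly6a (ENSMUSG00000075602, 74994877 to 74998031, minus strand). They were followed by Ly6c1 (ENSMUSG00000079018, 75044018 to 75048830, minus strand), Ly6c2 (ENSMUSG00000022584, 75108158 to 75111970, minus strand) and Ly6g (ENSMUSG00000022582, 75155240 to 75159126, plus strand). RefSeq's promoter windows (GRCm38.p6, 250 bases before to 50 bases after a gene's start) matched 3 of the 6, Ly6c1, Ly6c2 and Ly6g. These 3 carry the contrast of the myeloid members, since one was the monocyte gene, another the neutrophil gene and the remaining one a T-cell gene in these data. Stretches of 84 bases from their windows are shown 5′ to 3′ on each gene's own strand, ending 72, 75 and 0 bases before the annotated start of Ly6c1, Ly6c2 and Ly6g, with 2 motifs in capitals. TATAAA has the letters of the TATA box, where the basal transcription machinery binds. Whether the marked copies act as such was not tested. The core of the sites of PU.1, a factor of myeloid and B cells, reads GAGGAA.
Ly6c1, chr15:75048903-75048986, minus strand: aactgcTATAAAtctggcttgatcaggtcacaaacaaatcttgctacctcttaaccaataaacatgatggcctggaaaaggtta
Ly6c2, chr15:75112046-75112129, minus strand: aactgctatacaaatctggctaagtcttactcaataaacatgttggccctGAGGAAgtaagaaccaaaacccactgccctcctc
Ly6g, chr15:75155156-75155239, plus strand: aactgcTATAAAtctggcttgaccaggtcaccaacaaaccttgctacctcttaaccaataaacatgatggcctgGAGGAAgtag

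The stretches of Ly6c1 and Ly6g were identical at 76 of 84 bases (90.5%), whereas that of Ly6c2 shared 44.4% of the alignment columns with Ly6c1 and 46.3% with Ly6g. TATAAA was found in 1 of the 2 windows of Ly6c1, in both of Ly6g and in none of Ly6c2, and 13.6% of 32851 RefSeq promoters of the same length held it on either strand. GAGGAA was found on at least 1 strand in a window of all 3 genes, against 28.3% of all promoters. The E-box CANNTG was also present in all 3, with 72.3% of all promoters holding it. The interferon-stimulated response element (3.44% of promoters) and the gamma-activated site TTCNNNGAA (8.30%) were not in these windows, which says only that the letters searched for are absent there.

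After filtering, 39167 of 40545 cells remained, with 10781, 8918, 10573 and 8895 cells and 31210188 to 63958243 UMIs per library. Cells of the TLR9-/- libraries were deeper, with medians of 2545 and 3618 UMIs, against 1759 and 2287 in the WT libraries. Between 112 and 185 cell barcodes were shared by a pair of libraries. The cells were clustered without the 6 genes, and each took the name of the class with most markers among its leading genes, which gave 15 named classes and 1 unnamed cluster of 304 cells led by immunoglobulin genes. A class name below therefore means cells resembling that class. Levels are given as CPM, the member's UMIs per 1000000 UMIs of the class in a library, as mean ± SD over the 4 libraries. Each molecule is counted once at its 5′ end, so the unit does not grow with the length of the transcript. Tlr9, the targeted gene, still had 41 and 48 UMIs in the libraries labelled TLR9-/-, against 120 and 97 in those labelled WT (0.817, 0.7505, 3.84 and 2.34 CPM), and the log2 fold change of −1.98 did not pass the test (adjusted p = 0.117, edgeR's quasi-likelihood test with Benjamini-Hochberg adjustment).

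The 6 genes differed widely in abundance. Ly6c2 had 342072 UMIs over all cells (1777 ± 404 CPM), Ly6e had 278172 (1504 ± 304 CPM) and Ly6d had 139151 (805 ± 288 CPM). Ly6g followed with 17049 UMIs (87.9 ± 17.02 CPM), Ly6a with 16294 (97.0 ± 58.7 CPM) and Ly6c1 with 552 (2.79 ± 1.28 CPM). Some reads cannot be given to 1 member with certainty. Of all stretches of 50 bases in the annotated transcripts of Ly6c1, 32.8% also occurred in another gene of a fixed set, mostly Ly6c2. The share was 17.7% for Ly6a and 13.98% for Ly6c2. It was 0.224% for Ly6g and 0 for Ly6d and Ly6e, and at 150 bases, the length of the reads, only Ly6c1 (2.29%) and Ly6c2 (1.42%) kept any. The set held the other members and Ly6i, Ly6f, Ly6k, Ly6l, Ly6h, Lynx1, Gml and Gml2, and further genes were not searched. The stretches covered whole transcripts, whereas the molecules were read from the 5′ end, so they do not give the share of such reads.

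**Figure D1:**
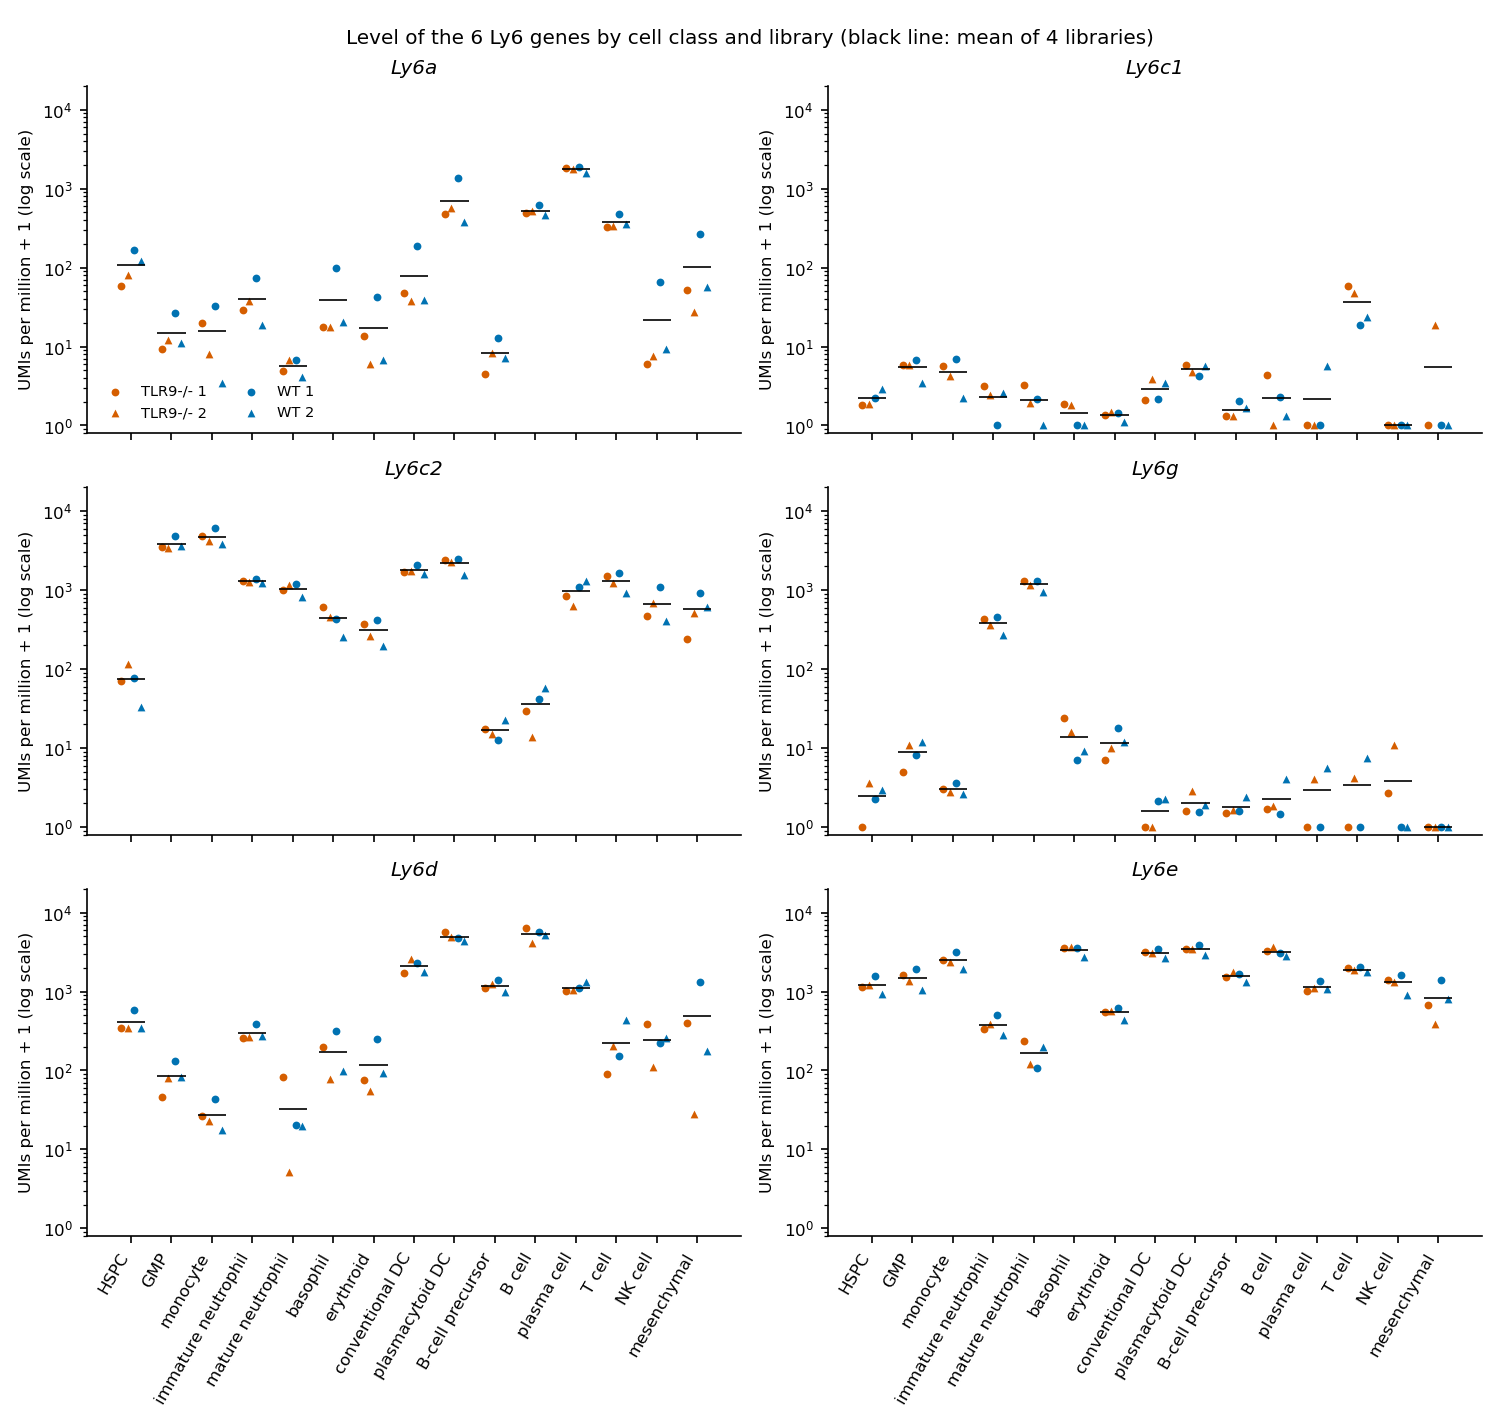
Level of each of the 6 genes in the 15 named classes, as CPM + 1 on a log axis, with 1 point per library and a black line at the mean of the 4 libraries. Ly6e lay above 100 CPM in the mean of every class, whereas Ly6g was above 300 CPM only in immature (377 CPM) and mature neutrophils (1181 CPM) and Ly6c1 above 10 CPM only in T cells (36.1 CPM).

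Ly6a, the stem cell marker Sca-1, was not highest in the stem and progenitor class but in antibody-secreting and lymphoid cells. Plasma cells had 1853, 1787, 1898 and 1575 CPM (1778 ± 143), plasmacytoid dendritic cells, the main producers of type I interferon, had 474, 561, 1385 and 383 CPM (701 ± 462), and B cells had 492, 523, 626 and 463 CPM (526 ± 71.0). The plasma cells stood above every other class in each library, while the next 2 classes overlapped, and WT 1 was highest in all 3. T cells held 372 ± 68.6 CPM, and hematopoietic stem and progenitor cells (HSPCs) came after these with 106 ± 47.0 CPM. The remaining classes had means between 4.65 CPM in mature neutrophils and 100.04 CPM in mesenchymal cells. The class of plasma cells held 122 cells, 50, 20, 32 and 20 in the libraries. Without cells marked as doublets, 1, 20, 30 and 20 remained, and the libraries other than TLR9-/- 1 then had 1787, 1631 and 1575 CPM of Ly6a, while the remaining cell of TLR9-/- 1 had 0 UMIs. Doublets were marked by another rule in TLR9-/- 2 than in the other libraries, as described with the processing. B cells held 31.3% of all Ly6a UMIs, plasmacytoid dendritic cells 27.3% and plasma cells 14.1%, as means over the libraries.

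Within the HSPC class, Ly6a had its highest mean in the stem cell-like cells. The 1026 HSPCs were clustered again without the 6 genes, and 2 subclusters with 241 cells in all took the name stem cell-like. The first, of 130 cells, had the stem cell factor Hlf second among its leading genes and held 3 stem cell markers among the leading 10. The other, of 111 cells, was led by the early response genes Egr1, Ier3, Nr4a1, Fos and Zfp36 with Hlf after them, and held 1 stem cell marker and 1 basophil or mast cell marker. The Hlf subcluster had 14, 44, 8 and 64 cells in the 4 libraries and the Egr1 subcluster 72, 3, 35 and 1, so each came mostly from the libraries of 1 replicate number. Over both, the Ly6a level was 249.6, 285, 309 and 306 CPM (288 ± 27.4). It was 354 ± 93.8 CPM in the Hlf subcluster and 183 ± 123 CPM in the Egr1 subcluster, which reached 0 in WT 2, the library with 1 such cell. The lymphoid-primed subclass, led by Dntt and Il7r, had 57.3, 103, 140 and 72.6 CPM (93.4 ± 36.7), which did not overlap with the stem cell-like range. The B-cell precursors among the HSPCs (52 cells) had 154 ± 86.5 CPM, up to 275 CPM, and an unnamed cycling subcluster led by Socs2 and Dntt (54 cells) had 134 ± 136 CPM, up to 332 CPM, and both overlapped with it. Megakaryocyte progenitors had 5 Ly6a UMIs in 98 cells and erythroid progenitors 1 UMI in 105 cells.

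Ly6d was distributed differently within HSPCs. It was at 5.59 ± 5.37 CPM in stem cell-like cells, with 5 UMIs in all, and at 1420.2, 1507, 991 and 2457 CPM (1594 ± 618) in the lymphoid-primed subclass. The B-cell precursors among the HSPCs had 797 ± 160 CPM of Ly6d, and the unnamed subclusters 477 ± 246 CPM. The latter pool 3 subclusters that differed, with 984 ± 575 CPM of Ly6d in the one led by F13a1 and Irf8, 492 ± 363 CPM in the Socs2 subcluster and 1.39 ± 2.78 CPM in one led by Hbb-bs and histone genes. Ly6c2 was high only in the F13a1 subcluster, at 441 ± 172 CPM, which held 449 of the 461 Ly6c2 UMIs of the unnamed subclusters. It was at 7.32 and 5.05 CPM in the other unnamed subclusters and at 8.66 ± 6.88 CPM in stem cell-like cells. Ly6a and Ly6d were thus highest in different subclasses.

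**Figure D2:**
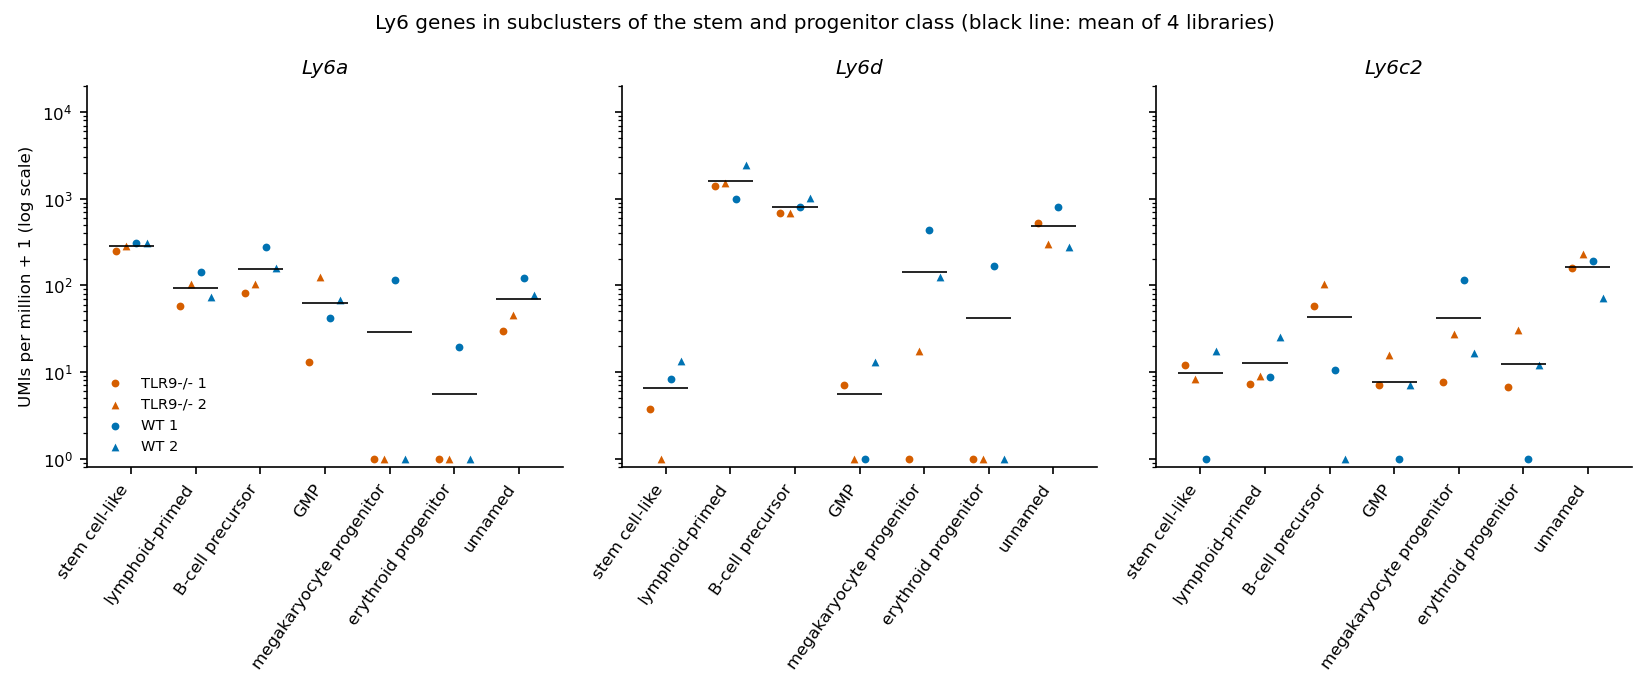
Ly6a, Ly6d and Ly6c2 in the subclasses of the HSPC class, as CPM + 1 on a log axis, with 1 point per library and a black line at the mean. Ly6a was highest in stem cell-like cells (288 CPM), Ly6d in lymphoid-primed cells (1594 CPM) and Ly6c2 in the pooled unnamed subclusters (162 CPM), of which only the F13a1 subcluster was high (441 CPM).

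Ly6c2, which encodes Ly-6C together with Ly6c1, was the leading gene of monocytes and their progenitors. Monocytes had 4814, 4138, 6073 and 3804 CPM (4707 ± 1003), and granulocyte-monocyte progenitors (GMPs) had 3534, 3459, 4863 and 3584 CPM (3860 ± 671). The ranges of both overlapped across libraries, but within each library monocytes were higher. GMPs held 51.2% of all Ly6c2 UMIs and monocytes 25.4%. The border of these classes was not sharp. At finer clustering, 325 and 229 of the 3157 GMPs fell into clusters named monocyte. Of the 3737 monocytes, 248 fell into a macrophage-like cluster, described under other observations. Cells with at least 1000 UMIs were thinned to that number, so that depth was equal, and shallower cells were left out. Of these, 88.2% ± 3.52 of monocytes and 86.0% ± 2.20 of GMPs had a Ly6c2 UMI, against 1.89% ± 0.741 of B-cell precursors. Between 422 and 1254 monocytes or GMPs per library were deep enough for this. Over all cells without thinning the shares were 91.5%, 95.7% and 3.53%.

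Other cells held Ly6c2 at intermediate levels. Plasmacytoid dendritic cells had 2176 ± 412 CPM, conventional dendritic cells 1778 ± 225 CPM, T cells 1315 ± 315 CPM, immature neutrophils 1291 ± 62.6 CPM and mature neutrophils 1047 ± 179 CPM, an order in which the libraries of neighbouring classes overlapped except for the last pair. Plasma cells (968 CPM), natural killer cells (664 CPM), mesenchymal cells (568 CPM), basophils (438 CPM) and erythroid cells (310 CPM) were lower, and the erythroid value fell to 91.3 CPM without marked doublets. HSPCs (73.4 CPM), B cells (34.6 CPM) and B-cell precursors (15.96 CPM) held the least. The conventional dendritic class of 917 cells was mixed. At finer clustering of all cells, 525 of them fell into a cluster of 530 that held 2 plasmacytoid and 2 conventional dendritic markers among its leading genes (1714 CPM of Ly6c2, 2942 CPM of Ly6d). Another 338 fell into a cluster of 393 cells led by Cd209a and MHC class II genes (1305 CPM of Ly6c2 and 112.6 CPM of Ly6d).

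Ly6c1 was scarce and followed T cells. T cells had 57.8, 46.3, 17.5 and 22.6 CPM (36.1 ± 19.2), from 72, 44, 8 and 7 UMIs, and the mean of every other class was at or below 4.49 CPM. Natural killer cells, which like T cells are lymphoid, had 0 UMIs of Ly6c1 in 499 cells, which allows a share of up to 0.601% of cells with a UMI. This limit pools the cells of the 4 libraries, covers counting error only and says nothing of cells whose RNA was not captured. Summed over cells, GMPs held 39.4% of the Ly6c1 UMIs, T cells 19.6% and monocytes 13.3%. In monocytes, where Ly6c2, its neighbour on the chromosome, was highest, Ly6c1 was at 3.77 CPM.

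Ly6g was a gene of the neutrophil classes, of which the mature held 59.2% of its UMIs and the immature 34.9%. Mature neutrophils had 1319, 1146, 1321 and 939 CPM (1181 ± 181) and immature neutrophils 425, 360.0, 457 and 267 CPM (377 ± 84.0), with no overlap between the classes in any library. Outside them, the mean ranged from 0 in mesenchymal cells (0 UMIs in 63 cells, which by the same limit allows up to 4.76% of cells with a UMI) to 12.95 CPM in basophils, a value that was 4.40 CPM without marked doublets. At 1000 UMIs per cell, 56.5% ± 6.33 of mature and 28.5% ± 4.82 of immature neutrophils had a Ly6g UMI, against 0.0959% ± 0.0985 of B cells. Unthinned, these shares were 61.1%, 66.1% and 0.185%, so that the order of the neutrophil classes turned with depth, as immature neutrophils held more UMIs per cell (medians of 4789.5 to 7958 against 1110.0 to 2592). The thinned shares leave out cells with fewer than 1000 UMIs. For mature neutrophils they rest on 576, 1347, 366 and 802 of the 1050, 1469, 528 and 1079 cells.

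Within the myeloid clusters, Ly6c2 was highest in progenitors and monocytes and Ly6g in mature neutrophils. The clusters are given here from progenitors to mature cells by their leading genes, an order that was not measured as time. Ly6g was at 1.64 ± 0.966 CPM in GMPs led by Cd34 and Ass1, at 15.3 ± 3.78 CPM in GMPs led by Elane and Prss57, and at 366 ± 73.8 CPM in cycling immature neutrophils. It was highest in mature neutrophils led by Ltf and Mmp9, at 1738, 1242, 1496 and 1079 CPM (1389 ± 289), and lower in those led by Retnlg and Il1b, at 809, 1008, 825 and 769 CPM (853 ± 106). The first of these mature clusters was higher in every library. Its leading genes began with Ifitm6 and AA467197. Among its 10 leading genes it held 4 mature and 2 immature neutrophil markers, with 12 and 10 detected. The Retnlg and Il1b cluster held 6 and 0, with 14 and 5 detected. The name mature is therefore less certain for the cluster with Ltf and Mmp9. Ly6c2 was at 4291 ± 818 CPM and 3335 ± 426 CPM in the GMP clusters, at 1412 ± 82.6 CPM in cycling immature neutrophils, at 761 ± 128 CPM in those led by Lcn2 and Ngp, and at 1096 ± 160 CPM and 985 ± 257 CPM in the mature clusters. Monocytes had little Ly6g in either cluster (2.27 and 1.72 CPM), and Ly6c2 was higher in cycling monocytes (5292, 4745, 6854 and 4642 CPM) than in those led by Clec4a3 and Apoe (4074, 3509, 5271 and 2854 CPM) in all 4 libraries.

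Neutrophils therefore carried RNA of both genes. At 1000 UMIs per cell, 35.8% ± 7.86 of mature and 17.8% ± 3.69 of immature neutrophils had UMIs of both Ly6c2 and Ly6g, whereas 0.137% ± 0.0358 of monocytes did.

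Ly6d, the marker of B-cell commitment, was as abundant in plasmacytoid dendritic cells as in B cells. B cells had 6323, 4106, 5673 and 5215 CPM (5330 ± 934) and plasmacytoid dendritic cells had 5610.4, 4946, 4799 and 4361 CPM (4929 ± 518), and the order of the 2 classes differed between libraries. Conventional dendritic cells, a mixed class as described above, had 2108 ± 423 CPM, B-cell precursors 1188 ± 178 CPM and plasma cells 1118 ± 138 CPM. The lowest levels were in mature neutrophils (31.2 CPM) and monocytes (26.6 CPM). At 1000 UMIs per cell, 92.4% ± 2.86 of B cells and 84.0% ± 2.67 of plasmacytoid dendritic cells had a Ly6d UMI, against 1.27% ± 0.670 of monocytes (94.3%, 89.4% and 2.40% unthinned). B cells held 34.4% of its UMIs, plasmacytoid dendritic cells 23.8% and B-cell precursors 19.97%.

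Ly6d was highest midway along the B-lineage clusters. Precursors led by Vpreb1 and Dntt, genes of the surrogate light chain and of base addition at V(D)J joints, had 128, 227, 243 and 141 CPM (185 ± 58.6), and cycling precursors had 471 ± 107 CPM. Precursors led by Rag1, part of the recombinase of antigen receptor genes, had 5470.4, 4996, 5123 and 4442 CPM (5008 ± 427), and B cells led by Ms4a1, the gene of CD20, had 9889, 8585, 8125 and 7744 CPM (8586 ± 935). Each of these steps exceeded the spread of the libraries without overlap. Mature B cells led by Ighd and MHC class II genes had less, 3710.5, 2915, 3737 and 3226 CPM (3397 ± 398), and plasma cells less again. Ly6a ran differently: it was at 13.2, 3.68 and 6.25 CPM in the 3 precursor clusters, at 144, 97.1, 268 and 89.6 CPM (150 ± 82.3) in Ms4a1 B cells, at 842.5, 649, 1115 and 863 CPM (867 ± 191) in the Ighd cluster and at 1778 CPM in plasma cells. The Ms4a1 cluster thus had the highest Ly6d and the Ighd cluster and plasma cells the higher Ly6a, with no overlap between libraries.

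UMIs of both Ly6a and Ly6d were found, at 1000 UMIs per cell, in 26.9% ± 3.67 of B cells, 33.1% ± 4.59 of plasma cells and 28.5% ± 11.7 of plasmacytoid dendritic cells. The latter also held Ly6c2 with Ly6d in 55.9% ± 7.72 of cells and Ly6c2 with Ly6a in 25.3% ± 10.2. Ly6a with Ly6c2 was seen in 8.40% ± 2.22 of T cells.

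Ly6e was the member found most evenly. Its mean was highest in plasmacytoid dendritic cells (3436 ± 423 CPM), basophils (3363 ± 408 CPM), B cells (3204 ± 372 CPM) and conventional dendritic cells (3085 ± 342 CPM), neighbours that all lay within their spread. Monocytes had 2495 ± 508 CPM, T cells 1902 ± 128 CPM, B-cell precursors 1580 ± 194 CPM, GMPs 1486 ± 378 CPM and HSPCs 1216 ± 271 CPM. Mesenchymal cells had 818 ± 429 CPM, erythroid cells 544 ± 81.5 CPM and immature neutrophils 374 ± 91.9 CPM, each overlapping with the next. Mature neutrophils had the least, 237, 121, 106 and 196 CPM (165 ± 62.3), below all other classes without overlap. Among the immature clusters, Ly6e was at 269 ± 72.7 CPM in cycling cells and at 847 ± 235 CPM in those led by Lcn2 and Ngp. The Lcn2 and Ngp cluster (439 cells) also held 912 ± 111 CPM of Ly6d, against 149 ± 45.2 CPM in the cycling cells. Of the 499, 526, 334 and 603 immature neutrophils, 361, 389, 239 and 423 remained without marked doublets. The part of RNA from other cells in these levels was not tested. The lowest Ly6e level was in 1 cluster, the mature neutrophils led by Ltf and Mmp9, at 17.3, 22.7, 20.2 and 33.0 CPM (23.3 ± 6.82), where Ly6g was highest. That cluster also held immature neutrophil markers, as given above. The other mature cluster, led by Retnlg and Il1b, had 505, 263, 347 and 393 CPM (377 ± 101) of Ly6e, so the clusters did not overlap. In GMPs, Ly6e was at 2078 ± 359 CPM in the Cd34 cluster and at 757 ± 165 CPM in the Elane cluster.

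**Figure D3:**
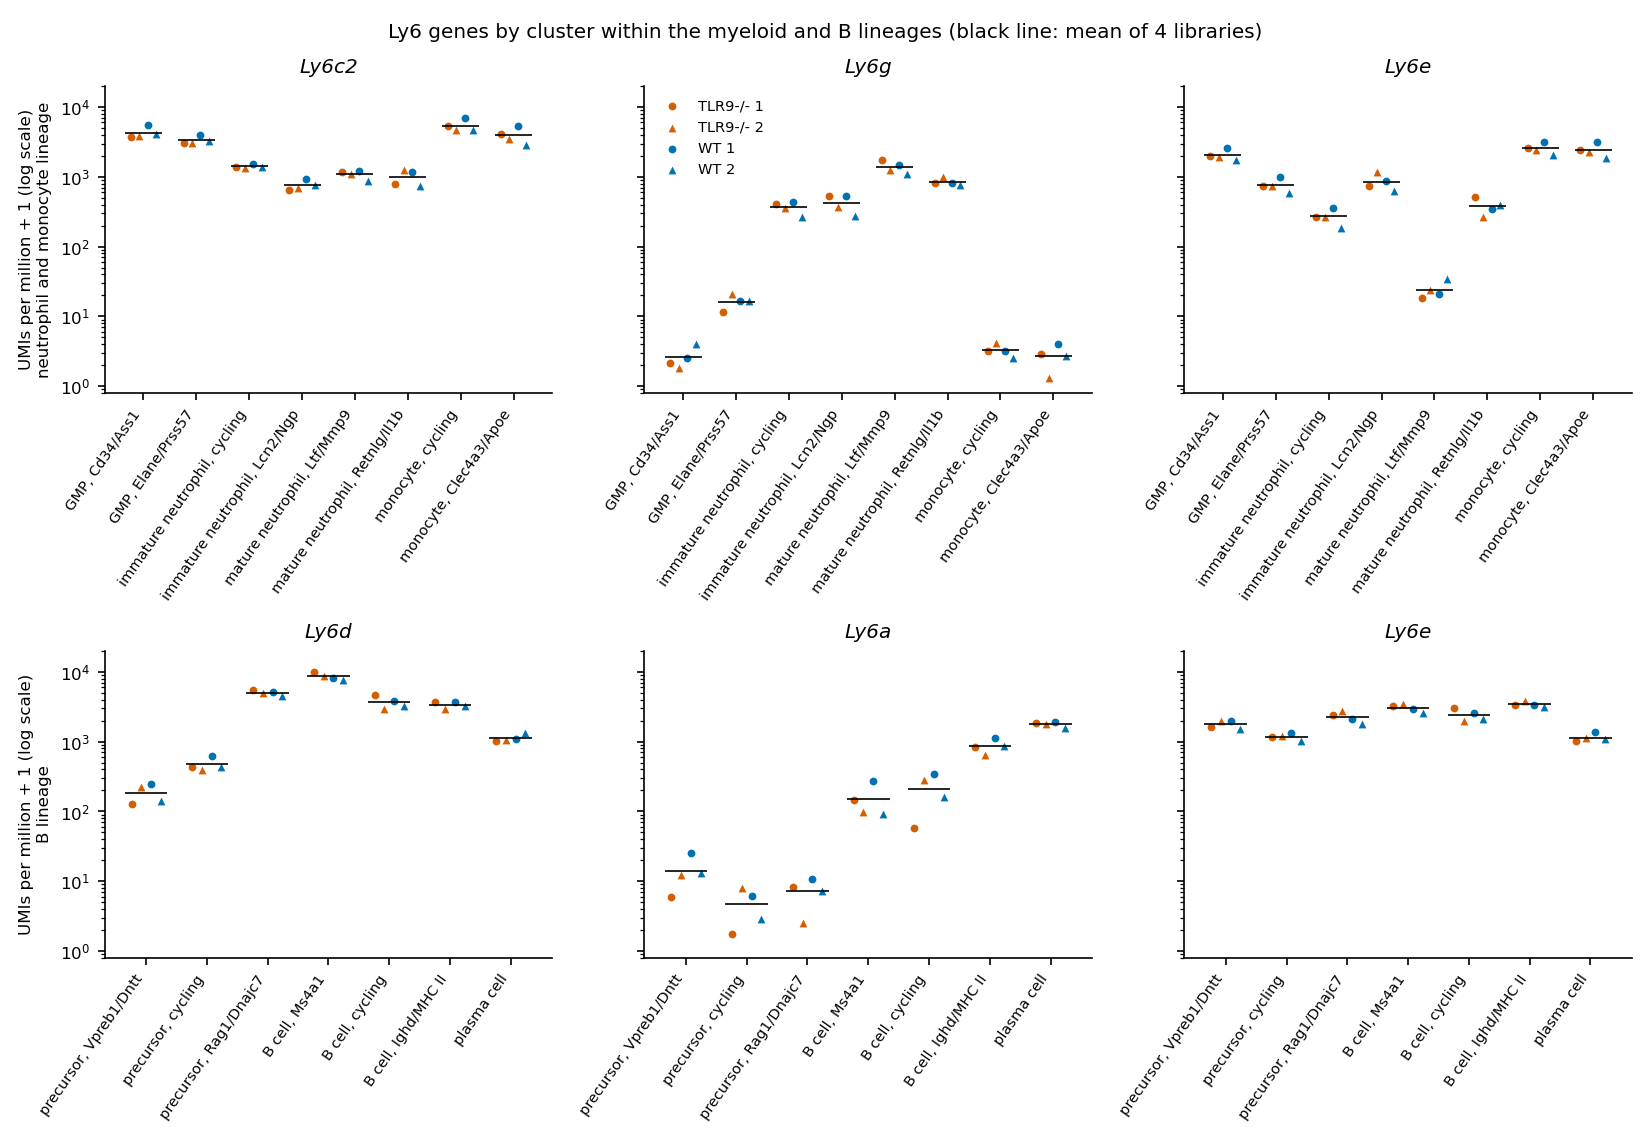
Ly6c2, Ly6g and Ly6e in the clusters of the neutrophil and monocyte lineage (upper row) and Ly6d, Ly6a and Ly6e in those of the B lineage (lower row), as CPM + 1 on a log axis, with 1 point per library and a black line at the mean. Ly6g peaked in mature neutrophils led by Ltf and Mmp9 (1389 CPM), where Ly6e was lowest (23.3 CPM), and Ly6d peaked in Ms4a1 B cells (8586 CPM), whereas Ly6a was highest in plasma cells (1778 CPM). The neutrophil cluster with Ltf and Mmp9 also held immature neutrophil markers among its leading genes.

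The genes whose class profile was most like that of each member were ranked over 15 classes and 2994 genes by Pearson's r of log2(CPM + 10). The classes share the same 4 libraries, so these values are a description. Ly6g was followed most closely by Chil1 (r = 0.991), Mapk13, Olfm4, Stfa1 and Itgb2l (0.981), all highest in mature neutrophils. Ly6c1 was followed by the T-cell factor Bcl11b (0.931), Izumo1r, the T-cell receptor chain Cd3e, Cxcr6 and Cd8b1. For Ly6d they were Sdc4 (0.907), Pafah1b3, the B-cell adaptor Blnk, the Ly6 relative Lynx1 (0.870) and Dnajc7. Ly6e was nearest to Tmem160 (0.910), Glmp, Cd48, Cox16 and Crip1, and Ly6c2 to the checkpoint protein gene Vsir (0.807), Gm36161, Lgals3, Gm21188 and Anxa2. Ly6a had Fam214a (0.846), Iglc3 (0.780), Txndc5, Igkv1-117 and Igkv14-126, which were all highest in plasma cells. Among the members themselves, Ly6a and Ly6d had r = 0.66, Ly6d and Ly6e 0.52 and Ly6e and Ly6g −0.78.

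The genotypes were compared within each class on UMIs summed per library, with 2 libraries against 2, by edgeR's quasi-likelihood test with Benjamini-Hochberg adjustment over all genes tested in the class. An exact permutation test of 2 against 2 could not give a p under 0.33. Of the 90 pairs of a member and a class, 66 passed the filter on low counts. Of these, 0 were called at an adjusted p under 0.05, and the lowest adjusted p was 0.0857 by edgeR. An unadjusted p under 0.05 was found for 11 (4 higher and 7 lower in TLR9-/-), or 16.7% of the 66. Among all genes this share was 4.36% to 16.5% in a class, with the top value in mesenchymal cells (1260 genes). Over all 114228 pairs of gene and class, 3748 were higher and 4015 lower at that limit. DESeq2 also called 0, with 10 at an unadjusted p under 0.05. Other settings did not keep the count of 0. With the replicate number as a block edgeR called 11 pairs, and without the filter on low counts it called 10. These settings raised the calls over all genes and classes from 342 to 2490 and 1864, and they are described in the closing sections. In the main fit, without a block, edgeR called 0.183% of all genes tested in B cells, 0.662% in B-cell precursors, 0.355% in HSPCs, 0.151% in T cells, 0.184% in basophils, 0.225% in conventional dendritic cells, 0.0662% in erythroid cells and 0.434% in GMPs. The other shares were 0.418% in immature neutrophils, 0.292% in mature neutrophils, 0.238% in mesenchymal cells, 0.433% in monocytes, 0.0811% in natural killer cells, 0% in plasma cells (0 of 1475 genes) and 0.191% in plasmacytoid dendritic cells. In data simulated with 200 changed genes, the test recovered 46% of 2-fold and 94% of 4-fold changes in monocytes (9902 genes) and 35% and 84% in HSPCs (9212 genes). The simulation gave all genes of a class the same spread between libraries and no replicate effect. These shares therefore do not tell how often a change would be found in a member whose libraries vary more.

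**Figure D4:**
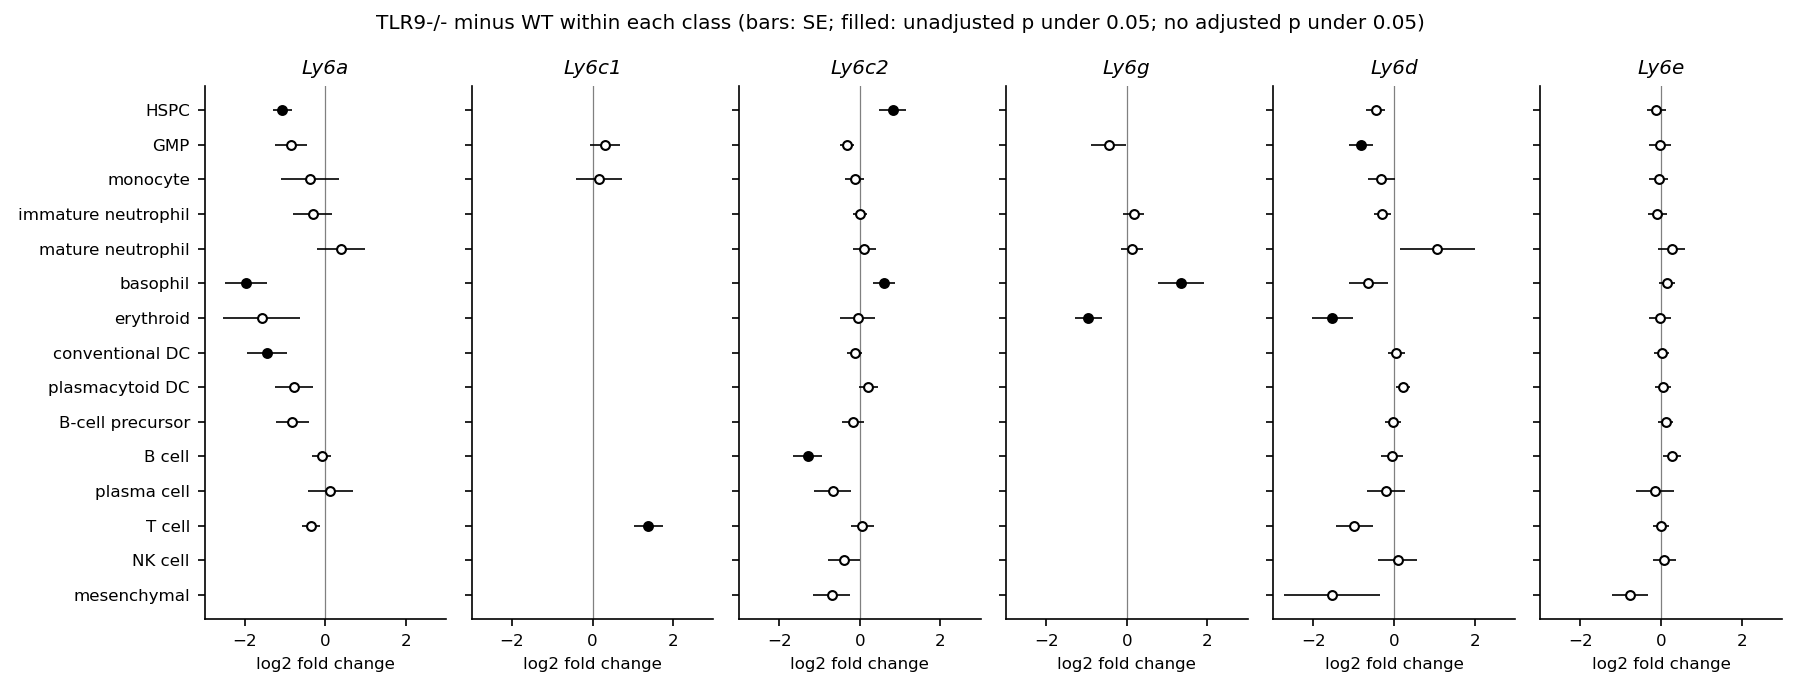
Log2 fold change of each member, TLR9-/- minus WT, in each class where it was tested. Bars are 1 standard error derived from edgeR's F statistic, and filled points have an unadjusted p under 0.05. The 11 filled points lie on both sides of 0, and the lowest adjusted p, 0.0857, belongs to Ly6a in HSPCs.

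Ly6a, Ly6c2, Ly6d and Ly6g had fold changes near their standard errors or below them where they were most abundant. The log2 fold change was 0.12 (SE 0.55) for Ly6a in plasma cells, −0.12 (SE 0.23) for Ly6c2 in monocytes, −0.05 (SE 0.27) for Ly6d in B cells, 0.22 (SE 0.17) for Ly6d in plasmacytoid dendritic cells and 0.13 (SE 0.28) for Ly6g in mature neutrophils. Ly6e stayed between −0.77 in mesenchymal cells and 0.27 in B cells over its 15 classes. Of the 5 pairs above, the genotypes overlapped in all but Ly6d in plasmacytoid dendritic cells, where both TLR9-/- libraries were above both WT libraries. Ly6c1 was highest in T cells, where its values did not overlap between the genotypes and are given further on.

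Ly6a had the lowest adjusted p, in HSPCs. The levels were 57.8, 79.9, 164 and 122 CPM, from 139, 184, 131 and 126 UMIs. Both TLR9-/- libraries were lower than both WT libraries, and the log2 fold change was −1.07 (SE 0.23, adjusted p = 0.0857 by edgeR's quasi-likelihood test). The size of the fold change depended on single libraries. It was −0.86 without TLR9-/- 1, −1.29 without TLR9-/- 2, −0.85 without WT 1 and −1.24 without WT 2. Such fits leave 1 library in a genotype and cannot measure its spread between mice, so only their effect sizes are given. With the replicate number as a block, the adjusted p of Ly6a in HSPCs was 1.26e-05 by edgeR's quasi-likelihood test. Whether the numbers pair the libraries could not be settled. The makeup of the HSPC class differed as well. Stem cell-like cells were 86 of 393, 47 of 264, 43 of 181 and 65 of 188 HSPCs, and they held 90 of 139, 79 of 184, 42 of 131 and 75 of 126 Ly6a UMIs. Within stem cell-like cells, whose subclusters were spread unevenly over the libraries, the log2 fold change was −0.23 (SE 0.27, adjusted p = 0.985, with 0.0283% of 3537 genes called), although both TLR9-/- libraries were again below both WT libraries. In the other HSPCs the level was 23.9, 51.8, 134 and 64.5 CPM, also without overlap.

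Over the 13 classes where it was tested, Ly6a had a negative log2 fold change in 11, between −1.97 and 0.38. Its level was highest in WT 1 in 14 of 15 classes. In WT 1 the summed level of 46 interferon-stimulated genes, a list that holds none of the 6 members, was the highest of the 4 libraries in 15 of 15 classes. In HSPCs that sum was 1806, 2129.8, 3044 and 1813 CPM. Other fixed lists were highest in WT 1 in fewer classes. These were 9 of 15 for other GPI-anchored proteins, 8 for other Ly6 and uPAR domain genes and 7 for GPI anchor assembly genes. The classes share the same 4 libraries, and the cause of the high values in WT 1 was not tested. Without WT 1, the Ly6a difference in conventional dendritic cells was no longer negative. With 46.2, 37.1, 185 and 37.5 CPM in the 4 libraries, the log2 fold change went from −1.45 (SE 0.49, adjusted p = 0.69 by edgeR) to 0.15. Basophils had the same shape, with 16.5, 16.5, 99.0 and 19.4 CPM and a log2 fold change of −1.97 (SE 0.53, adjusted p = 0.382 by edgeR). Ly6e was highest in WT 1 in 11 of 15 classes, Ly6c2 in 10, Ly6d in 8, Ly6g in 4 and Ly6c1 in 3.

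Ly6c2 had fold changes of opposite sign in HSPCs and in B cells, neither of which passed the test. In HSPCs it had 70.2, 116, 75.2 and 31.9 CPM, with a log2 fold change of 0.82 (SE 0.33, adjusted p = 0.642 by edgeR) and overlapping genotypes. In B cells it had 28.5, 12.6, 41.3 and 55.9 CPM, both TLR9-/- libraries being lower, with a log2 fold change of −1.29 (SE 0.35, adjusted p = 0.460 by edgeR). The log2 fold change was −1.92 without TLR9-/- 1 and −0.76 without TLR9-/- 2. These B-cell levels are low beside those of monocytes, and RNA of the neutrophil gene S100a8 in the same B cells was at 266, 173, 104 and 745 CPM and that of Elane at 82.7, 71.4, 24.6 and 176 CPM. Both were highest in WT 2, as was Ly6c2, but lowest in WT 1, where Ly6c2 was above both TLR9-/- libraries. The part of such RNA in the Ly6c2 values was not tested.

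Ly6c1 in T cells was higher in both TLR9-/- libraries, as given above, with a log2 fold change of 1.38 (SE 0.36, adjusted p = 0.456 by edgeR). Fits with 1 library left out cannot measure the spread of the lone genotype between mice, and their p values are not given. Among the remaining pairs at an unadjusted p under 0.05, Ly6d had log2 fold changes of −0.83 in GMPs (SE 0.30) and −1.53 in erythroid cells (SE 0.51), and Ly6g −0.95 in erythroid cells (SE 0.34) and 1.34 in basophils (SE 0.57). Ly6c2 in basophils had 0.61 (SE 0.28). These pairs had adjusted p values of 0.399 to 0.933 in edgeR. The mean levels of these members in these classes lay between 10.7 and 438 CPM. In basophils, S100a8 RNA was at 4506, 3481, 828 and 2201 CPM and Elane RNA at 1002, 987, 279 and 265 CPM. Both were higher in both TLR9-/- libraries, as Ly6g and Ly6c2 were. In erythroid cells, S100a8 was at 5151, 3589, 5857 and 5813 CPM and Elane at 1137, 1150, 1056 and 777 CPM. The part of RNA from other cells in the values of these members was not tested. Ly6d in erythroid cells had 74.1, 54.0, 247 and 92.8 CPM, with WT 1 far above the rest.

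Whether the genotype moved a member differently in a pair of classes was tested by the interaction term in edgeR, with the library as a block. Monocytes were set against immature neutrophils (0.597% of all genes called), B-cell precursors against B cells (0.204%) and HSPCs against monocytes (0.133%). Of 15 tests of members, 0 were called and 3 had an unadjusted p under 0.05. Over all genes, 756 of 10382, 821 of 10306 and 627 of 10503 had such a p, in the order of the class pairs given. The effect on Ly6c2 was 0.93 higher in HSPCs than in monocytes on the log2 scale (SE 0.21, adjusted p = 0.146), and 1.10 higher in B-cell precursors than in B cells (SE 0.31, adjusted p = 0.239). That on Ly6a was −0.70 in B-cell precursors relative to B cells (SE 0.31, adjusted p = 0.598). With 1 library left out in turn, the first ranged from 0.49 (without TLR9-/- 2) to 1.43 (without TLR9-/- 1). The second ranged from 0.72 (without TLR9-/- 2) to 1.57 (without TLR9-/- 1). The Ly6a difference ranged from −0.28 (without TLR9-/- 1) to −1.16 (without TLR9-/- 2). These fits leave 1 library in a genotype and cannot measure its spread between mice, so only their effect sizes are given.

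Over all cells summed per library, edgeR again called 0 of 6 members, with 3 at an unadjusted p under 0.05 (17.1% of all genes reached this) and 0.268% of all genes called. In such sums, fewer cells of a type and less RNA per cell cannot be told apart. The log2 fold change was 1.09 (SE 0.35, adjusted p = 0.224) for Ly6c1, 0.50 (SE 0.20, adjusted p = 0.290) for Ly6c2 and −0.74 (SE 0.24, adjusted p = 0.226) for Ly6d. It was −0.89 (SE 0.46) for Ly6a, 0.27 (SE 0.21) for Ly6g and 0.10 (SE 0.26) for Ly6e.

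The classes held different shares of the UMIs of each library. GMPs held 30.2%, 35.6%, 14.1% and 18.7%, B-cell precursors 11.8%, 5.07%, 21.9% and 18.7%, and B cells 2.94%, 3.83%, 7.29% and 7.18%. The 95% Wilson intervals of such shares were at most ± 0.0146 percentage points and cover counting error only. The difference over all cells was therefore recomputed, for the 4 pairings of a TLR9-/- with a WT library, once with only the class shares changed and once with only the levels within classes changed. For Ly6c2, the whole difference was 0.53 in the mean of the pairings (0.28 to 0.77), the class shares alone gave 0.68 (0.62 to 0.73) and the levels alone −0.13 (−0.43 to 0.15). For Ly6d they were −0.71 (−1.13 to −0.29), −0.63 (−0.82 to −0.46) and −0.03 (−0.27 to 0.21). In every pairing, then, the class shares gave a positive value for Ly6c2 and a negative one for Ly6d, whereas the levels within classes gave values on both sides of 0. For Ly6c1, with 552 UMIs in all, the whole difference was 1.13 (0.56 to 1.70). The class shares alone gave 0.57 (0.50 to 0.65) and the levels alone 0.51 (0.03 to 0.99), both positive in every pairing. For Ly6a the levels spanned −0.95 to 0.20, and for Ly6g the class shares spanned −0.59 to 0.88. The pairings share libraries and are not independent.

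**Figure D5:**
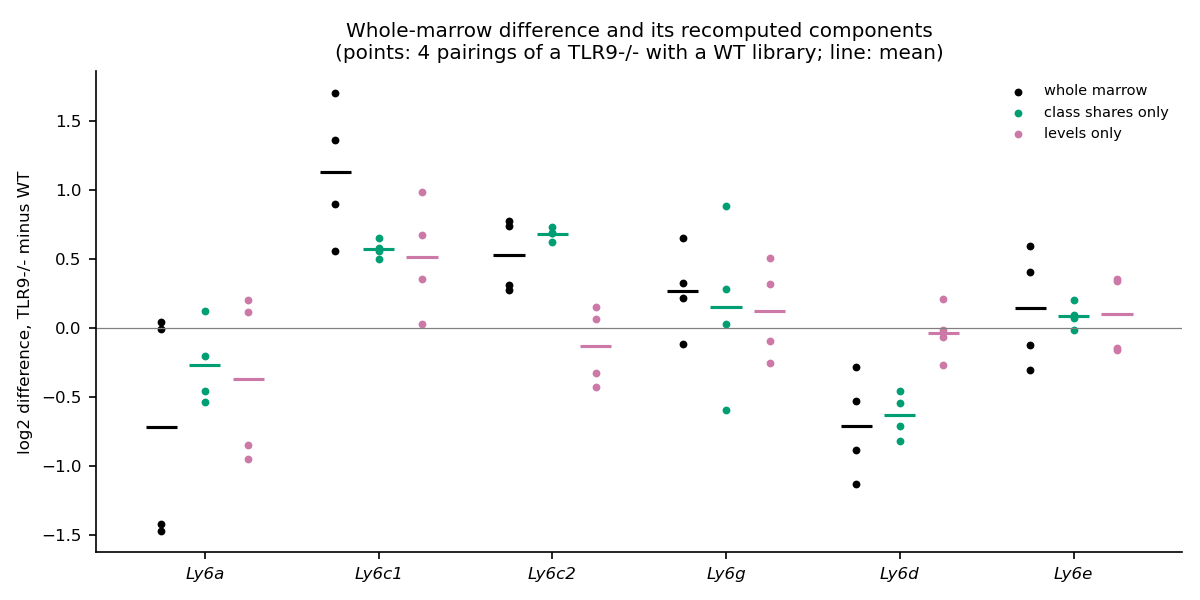
Log2 difference of each member over all cells, TLR9-/- minus WT, for the 4 pairings of libraries (points) with their mean (line), as measured, with only the class shares changed, and with only the levels within classes changed. Class shares gave means of 0.68 for Ly6c2 and −0.63 for Ly6d, against 0.53 and −0.71 as measured, and levels gave values on both sides of 0 for both genes. For Ly6c1, levels gave 0.03 to 0.99 and class shares 0.50 to 0.65. For Ly6c2, the pairings with WT 1 had 0.68 and 0.73 from class shares, above the measured 0.31 and 0.28, and −0.32 and −0.43 from levels. Those with WT 2 had 0.62 and 0.69 from class shares, against 0.77 and 0.74 as measured.

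Related genes were compared through fixed lists. Of 37 other Ly6 and uPAR domain genes, 33 were in the matrices, 10 of them at 0 UMIs. The most abundant were Plaur, the urokinase receptor (10809 UMIs, highest in mature neutrophils at 291 CPM), Lynx1 (2388 UMIs, B cells, 103 CPM) and Cd59a, which protects cells from complement (2255 UMIs, mesenchymal cells, 85.7 CPM). Ly6k followed with 1074 UMIs (plasmacytoid dendritic cells, 45.7 CPM), Cd59b with 852 (erythroid cells, 24.5 CPM), Ly6g5b with 367 (mature neutrophils, 16.5 CPM) and Ly6i with 330 (plasma cells, 34.8 CPM). Over the 15 classes, 0 of their 40 tested pairs of gene and class were called by edgeR. At an unadjusted p under 0.05, 3 were higher and 5 lower, against 3748 and 4015 of all 114228 pairs. Of 260 pairs of GPI anchor assembly genes 0 were called as well, with 3 higher and 6 lower at that limit.

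Among 129 pairs of other GPI-anchored proteins, 1 was called. Cd52, a small glycoprotein of lymphocytes, had 138, 199.7, 503 and 311 CPM in HSPCs and fell by 1.28 on the log2 scale (SE 0.25, adjusted p = 0.0494 by edgeR). Among 453 pairs of interferon-stimulated genes, Oasl2 was called in mature neutrophils, with 5.02, 1.62, 47.1 and 42.5 CPM and a log2 fold change of −3.94 (SE 0.44, adjusted p = 0.00279 by edgeR). The median log2 fold change of this list was negative in 13 of 15 classes (−0.47 to 0.14), with 56 pairs lower and 6 higher at an unadjusted p under 0.05. This rested on WT 1, for without it the median was negative in 4 of 15 classes (−0.17 to 0.52), against 12 to 15 without another library. Over all cells the summed level of the list was 2224, 2341, 4315 and 1813 CPM, so WT 2 lay below both TLR9-/- libraries. Over all 114228 pairs of gene and class, the medians lay between −0.03 and 0.02, with 142 called higher and 200 lower.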

How the data were processed

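Bone marrow mononuclear cells were profiled by 10x Chromium 5′ single-cell RNA-seq, 1 library per mouse. The deposited values are UMI counts per gene and cell, which the authors made with Cell Ranger 3.0.1 (per the file headers) and its aligner STAR on mm10. Their notes also name Seurat 2.3.4. Per the labels, cells were grouped by genotype and replicate.

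Here, cells with 200 to 10000 genes and at most 10% mitochondrial UMIs were kept. The methods state this limit as 0.10%, here taken to mean a fraction. Clustering (scanpy 1.11.5) used 2000 variable genes without the members, 30 components and the Leiden method (leidenalg 0.10.2) at resolution 1. A cluster took the class with most markers among its 10 leading genes or, among classes within 1 of the most, the one with the largest share of its markers detected. A cluster with Elane, S100a8 and Jchain UMIs in 75% of cells or more was left unnamed, a rule set after seeing the data. Doublets were kept in the main analysis. Scrublet scores were used to mark 4.36% to 8.81% of cells per library. In TLR9-/- 2 (4.36%) Scrublet's own threshold was used. In TLR9-/- 1 (8.81%), WT 1 (8.62%) and WT 2 (7.44%) that threshold marked very few cells. There the top scores, up to an expected rate set in advance, were marked instead. Values without marked doublets therefore rest on different rules in TLR9-/- 2 and in the other libraries.

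UMIs were summed per library and class and tested with edgeR 4.0.16 in R 4.3.3 (TMM, filterByExpr, quasi-likelihood test, two-sided, Benjamini-Hochberg over all genes of a class). The standard errors (SE) given with edgeR's fold changes were derived from its F statistic. Each is the absolute log2 fold change divided by the square root of F. Classes needed 10 cells per library. DESeq2 1.42.0, RLE scaling, no filter, a replicate block, each library left out, doublets left out, a minimum of 1000 UMIs, resolution 2 and a 5% mitochondrial limit were alternatives. Shares of cells are the expected shares after thinning to 1000 UMIs, among cells with at least that number. The test was tried on simulated counts first. Cells of 1 mouse are not replicates, so all tests compared libraries. UMI totals of 31210188 to 63958243 per library set the depth.

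The text names the 6 members, Tlr9, the 5 genes most like each member in level over the classes (100 CPM or more in a class) and list genes that passed the test. Members, lists and tests were chosen with earlier results of these data known. Protein sequences were not used here.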

Additional observations from a re-analysis of the deposited data

How the results depend on the processing

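The count of 0 members called within classes also held with RLE scaling, with DESeq2, without doublets, with at least 1000 UMIs per cell, at resolution 2 and with the 5% mitochondrial limit. Without the filter on low counts it was 10. With 1 library left out it was 2 to 7 (7 without TLR9-/- 1, 4 without TLR9-/- 2, 2 without WT 1 and 5 without WT 2). These fits assume that the lone library varies like those of the other genotype, and they cannot measure its spread between mice. The calls over all genes in these class fits are not given here. In the tests of a difference between classes, they rose too wherever leaving out a library led to a member being called. The count of members called with a library left out is therefore not a result about the members. Over all cells it was 0 to 1 (1 without WT 2). For the difference between B-cell precursors and B cells it was 0 to 1 (1 without TLR9-/- 1), and for HSPCs against monocytes 0 to 1 (1 without either TLR9-/- library).

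The replicate number as a block gave 11 members called within classes and 2 over all cells. The share of all genes called over all cells with the block is not given here, so the 2 cannot be set against it. In these fits, Ly6a passed in HSPCs (adjusted p = 1.26e-05), conventional dendritic cells (0.00217), GMPs (0.00104) and erythroid cells (0.0416), Ly6c2 in HSPCs (0.0131) and B cells (0.0380), and Ly6c1 in T cells (0.0282), by edgeR's quasi-likelihood test. Ly6d passed in T cells (0.000261), GMPs (7.54e-09), erythroid (0.000821) and mesenchymal cells (0.00867). Over all genes and classes the block raised the calls from 342 to 2490, against 1864 without the filter and 467 with DESeq2. Same-numbered libraries deviated together with r of −0.05 to 0.72 over the classes (median 0.39). The unnamed cluster, with 171 and 126 cells in the libraries numbered 1 against 3 and 4, and the stem cell-like subclusters also followed the numbers. There are only 2 pairs and no label ties a number to an experiment, so whether the numbers pair the libraries could not be settled, and the calls with the block stand beside those without it.

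Of 231 single fold changes recomputed, 199 kept their sign and side of the threshold, 26 newly passed it and 6 changed sign, the latter only where 1 library was left out. With each library left out in turn, Ly6d in B cells ranged from −0.40 (without TLR9-/- 1) to 0.22 (without TLR9-/- 2; 0.05 without WT 1). Without WT 2 and without WT 1, respectively, the values were −2.18 and 0.15 for Ly6a in conventional dendritic cells, −0.45 and 0.25 for Ly6c2 in monocytes, −0.16 and 0.49 for Ly6g in mature neutrophils, and −0.18 and 0.33 for Ly6e in plasmacytoid dendritic cells. Beyond the libraries named, the cause was not tested. Of 270 class levels 248 moved by less than 1 SD, and the class where a member was highest was the same in every such alternative. Of 270 shares of cells, 182 moved by more with the thinning depth. Low counts limit Ly6c1 most. The interferon-stimulated genes without each library were added after seeing the data.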

Other observations

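At finer clustering, 2 further groups of cells appeared that the classes above do not name. Cells led by C1qa, C1qb and C1qc (287 macrophage-like cells) had 915 ± 336 CPM of Ly6c2 and 2121 ± 476 CPM of Ly6e, with 1 UMI each of Ly6c1 and Ly6g. Their leading genes also included Ace and Nr4a1, which mark nonclassical monocytes, the monocytes known for low Ly-6C. Cells led by Pf4 and Ppbp (199 megakaryocyte-like cells) had 3042 ± 988 CPM of Ly6c2, 2041 ± 489 CPM of Ly6e and 698 ± 428 CPM of Ly6d (SD, n = 4 libraries). Of these cells 46.7% had Elane UMIs and 51.8% S100a8 UMIs, and the part of such RNA in the Ly6c2 level was not tested. In comparison, megakaryocyte progenitors within the HSPC class had 40.5 ± 49.3 CPM of Ly6c2.

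The unnamed cluster of 304 cells, led by immunoglobulin genes and Jchain, had Elane UMIs in 98.0% and S100a8 UMIs in 99.7% of its cells. Its Ly6a level was 183, 229, 208 and 1319 CPM and its Ly6c2 level 1586, 3028, 1907 and 884 CPM, from 171, 3, 126 and 4 cells. It entered no comparison.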
